A study of Mus musculus with 236 samples.

Results

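The genes described here are 10 genes of glucose uptake and glycolysis, chosen by name among the 39300 genes of a single-cell expression table. They are the glucose transporters Slc2a1 and Slc2a3, the hexokinases Hk1 and Hk2, the phosphofructokinases Pfkl and Pfkp, aldolase A (Aldoa), enolase 1 (Eno1), the pyruvate kinase gene Pkm and lactate dehydrogenase A (Ldha). All 10 members were in the table, and they were chosen with earlier results of these data known. Each held at least 20 unique molecular identifiers (UMIs, tags that stand for single captured RNA molecules), as did 13779 genes in all.

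Glycolysis splits glucose into pyruvate in the cytosol and yields ATP without oxygen. Transporters of the SLC2A family bring glucose in, hexokinase traps it as glucose phosphate, phosphofructokinase makes the first step that commits the sugar to glycolysis, and lactate dehydrogenase turns pyruvate into lactate while it regenerates the cofactor NAD. Most of these steps are run by isozymes from separate genes, and embryonic stem cells are known to change their balance of glycolysis and respiration as they leave the naive state, the earliest culture state of pluripotency.

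The cells were mouse embryonic stem cells (mESCs) of 1 female line, from blastocysts of a C57BL/6J mother and a CAST/EiJ father, and both groups came from this line. The line was kept in serum medium with LIF and 2i, inhibitors of MEK and GSK3 that hold the naive state. It was then moved to fibronectin-coated plates in medium with 10% serum and neither LIF nor 2i. The 2 groups were cells at 2.5 days and at 0.5 days of this withdrawal, so the day 0.5 cells were also without LIF and 2i, and cells kept in 2i were not analysed here. Chromatin contacts and RNA were read from the same single cells with HiRES. The RNA of 205 day 2.5 cells and 201 day 0.5 cells was in the expression table, with 1 or 2 cells to a library. No label sets cultures apart, so each day is 1 sample, no test was made, and intervals (95%) cover counting error only.

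The deposited values are expected counts of UMIs per gene and cell, some of them fractional. The median cell held 15796 UMIs at day 2.5, against 13670 at day 0.5, and the sums were 3186073 and 2655980 UMIs. UMIs on exons were 24.2% of gene UMIs at day 2.5, against 26.3% at day 0.5, so a gene with long introns gains UMIs here that exon counting would not give it. The cells fall into 3 batches by an unexplained sample column of the authors' cell table. Batch 2 holds both days, batch 3 only day 2.5 and batch 1 only day 0.5. Of the markers of naive pluripotency with enough UMIs, 7 of 7 were lower at day 2.5, and the list of 8 summed to 67.05 to 82.6 CPM (UMIs of a gene per 1000000 UMIs of the group) in the day 2.5 batches, against 1078 to 1129 CPM in the day 0.5 batches. The 4 formative markers, Fgf5 among them, were all higher and summed to 1508 to 1725 CPM, against 625 to 636 CPM. Among markers of pluripotency in general, Pou5f1 had 13.5 CPM at day 2.5 and 31.3 CPM at day 0.5. Sox2 had 7.06 and 32.8 CPM, and Sall4 had 127 and 133 CPM. Markers of fibroblasts, primitive endoderm, trophectoderm and cells like the embryo at the two-cell stage summed to at most 21.97 CPM per list and batch at day 2.5 and at most 18.5 CPM at day 0.5, with Zscan4c and Zscan4d at 0 UMIs in both. The part that these state markers have in the results below was not tested.

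The 10 members did not move as a block. The phosphofructokinase gene Pfkp was 7.62-fold lower at day 2.5, the transporter gene Slc2a3 was 1.58-fold lower, and Ldha was 2.09-fold higher, while Slc2a1, Pfkl and Pkm differed by less than 1.15-fold. A gene was called when its CPM ratio reached 1.5 in either direction and kept that direction within batch 2. By this rule 1 member was higher (Ldha), 3 were lower (Pfkp, Slc2a3 and Aldoa) and 6 were neither, while 21.1% of the 13779 genes were higher and 25.2% were lower. The members' counts are thus near the background. The median change, log2((CPM day 2.5 + 5)/(CPM day 0.5 + 5)), was -0.06 over the 10 members and -0.06 over all genes tested. Both day 2.5 batches lay above both day 0.5 batches for 3 members (Slc2a1, Eno1 and Ldha), as they did for 30.7% of all genes, and below them for 3 (Slc2a3, Hk2 and Pfkp), as they did for 37.1%. Summed over the 10 members, the level was 1268 CPM at day 2.5 and 1696 CPM at day 0.5. Without Pfkp the sums were 1212 and 1273 CPM, and without Pfkp and Slc2a3 they were 932 CPM at day 2.5 and 830.4 CPM at day 0.5.

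**Figure D1:**
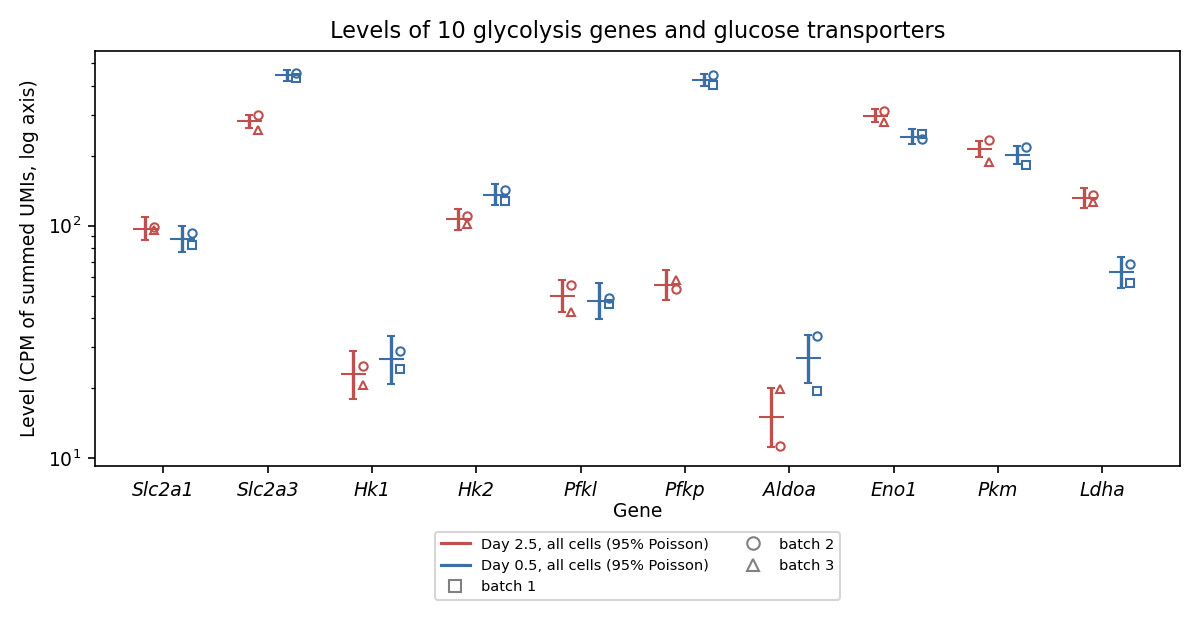
Level of each member in CPM of UMIs summed over cells (log axis), with day 2.5 (red) left of day 0.5 (blue). Dashes are all cells with 95% Poisson intervals and open symbols are batches. Pfkp is at 55.6 CPM at day 2.5 and 424 CPM at day 0.5, and for Aldoa the batches of both days overlap.

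The transporters set the rate of glucose entry. Slc2a3 encodes GLUT3, a transporter with high affinity for glucose that neurons and early embryos use (chromosome 6, 122727809 to 122802363 of GRCm38.p6, the build of all positions here). It had 298 CPM in batch 2 and 259 CPM in batch 3 at day 2.5, against 430 CPM in batch 1 and 453 CPM in batch 2 at day 0.5. Both day 2.5 values were below both day 0.5 values. Over all cells the levels were 280.4 CPM (262 to 299) and 442 CPM (418 to 468), a ratio of 0.634 (0.580 to 0.692). The ratio lies near the threshold of 1.5-fold, since its inverse was 1.58 (1.45 to 1.72) over all cells and 1.52 within batch 2. Slc2a3 was no longer called lower after thinning each cell to 5000 UMIs, in the mean over cells or at equal weight to cell cycle classes, with log2 changes of -0.49, -0.55 and -0.49 against -0.65.

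Slc2a1 encodes GLUT1, the transporter of basal glucose uptake in most dividing cells (chromosome 4, 119108745 to 119137330). It had 98.3 and 95.3 CPM in batches 2 and 3 at day 2.5, against 82.3 and 92.7 CPM in batches 1 and 2 at day 0.5. The batches did not overlap, but the ratio over all cells, 1.10 (0.928 to 1.31), had an interval that holds 1. The Slc2a1 to Slc2a3 ratio of UMIs stood at 0.346 (0.303 to 0.394) at day 2.5 and 0.199 (0.172 to 0.229) at day 0.5, a 1.74-fold shift toward Slc2a1. This shift was in the same direction in every batch, at 0.330 and 0.368 in day 2.5 batches 2 and 3, against 0.191 and 0.205 in day 0.5 batches 1 and 2. The ratio of UMIs of 2 genes is not a ratio of RNA molecules, since gene lengths differ. An effect of length that is the same on both days cancels in the change between the days. The exon share of UMIs was 24.2% at day 2.5 and 26.3% at day 0.5, and whether the effect of length was the same was not tested.

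Hexokinase carries out the first enzymatic step. Hk2, the inducible isozyme of embryonic, muscle and tumour cells (chromosome 6, 82725025 to 82774454), had 110.4 and 101.3 CPM in batches 2 and 3 at day 2.5, against 128 and 143 CPM in batches 1 and 2 at day 0.5. The batches did not overlap, and the ratio over all cells, 0.784 (0.674 to 0.912), stayed short of the threshold. Hk1, the isozyme found in most tissues (chromosome 10, 62268855 to 62379920), had 22.9 CPM at day 2.5 and 26.7 CPM at day 0.5, a ratio of 0.859 (0.611 to 1.21), and its batches overlapped. The Hk2 to Hk1 ratio of UMIs stood at 4.64 (3.60 to 6.07) at day 2.5 and 5.09 (3.94 to 6.66) at day 0.5. Its 2 intervals overlap, so no shift between the hexokinases was detectable at this depth.

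Phosphofructokinase showed the widest shift between isozymes among the 3 member pairs. Pfkp, the platelet-type isozyme (gene ID 56421, chromosome 13, 6579874 to 6649060), had 53.5 and 58.1 CPM in batches 2 and 3 at day 2.5, against 401 and 442 CPM in batches 1 and 2 at day 0.5. The lowest day 0.5 batch was far above the highest day 2.5 batch. Over all cells it held 177 UMIs at day 2.5 and 1125 UMIs at day 0.5, or 55.6 CPM (47.7 to 64.4) against 424 CPM (399 to 449). The ratio was 0.131 (0.111 to 0.154) over all cells and 0.121 (0.0965 to 0.150) within batch 2. By its change Pfkp stood at rank 77 from the lowest of the 13779 genes tested. Pitrm1, the neighbour whose RefSeq span overlaps that of Pfkp, had 39.5 CPM at day 2.5 and 34.3 CPM at day 0.5.

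Pfkl, the liver-type isozyme (chromosome 10, 77986947 to 78009807), had 55.5 and 42.5 CPM in batches 2 and 3 at day 2.5, against 46.1 and 48.6 CPM in batches 1 and 2 at day 0.5. The batches overlapped and the ratio was 1.05 (0.825 to 1.34). Of the UMIs of the pair, Pfkp held 52.8% (47.3 to 58.2) at day 2.5, against 89.9% (88.1 to 91.5) at day 0.5. The Pfkp to Pfkl ratio was thus 7.995-fold lower, and it was 0.964 and 1.37 in day 2.5 batches 2 and 3, against 8.71 and 9.10 in day 0.5 batches 1 and 2. Pfkm, the muscle-type isozyme and no member, had 18 UMIs at day 2.5 and 24 UMIs at day 0.5, too few to place it beside the other isozymes.

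The promoter of Pfkp is shown because this gene had the widest change, and that of Ldha because it was the member called higher. Both come from RefSeq (GRCm38.p6) and run from 250 bases before an annotated start to 50 after it. Both windows lie inside the spans given here for these genes, so these starts are not the outer ends of those spans. Capitals mark ACGTG or GCGTG on either strand (CACGT and CACGC when they lie on the other strand), the core letters of the element that hypoxia-inducible factors (HIF) bind.
Pfkp, chr13:6648722-6649021, minus strand: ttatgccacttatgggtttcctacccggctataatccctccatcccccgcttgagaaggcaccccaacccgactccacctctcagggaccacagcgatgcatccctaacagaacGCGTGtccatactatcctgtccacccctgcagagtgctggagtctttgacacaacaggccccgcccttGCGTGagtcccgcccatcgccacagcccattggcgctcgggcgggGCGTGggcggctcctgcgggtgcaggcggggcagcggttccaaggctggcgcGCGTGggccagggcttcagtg
Ldha, chr7:46845554-46845853, plus strand: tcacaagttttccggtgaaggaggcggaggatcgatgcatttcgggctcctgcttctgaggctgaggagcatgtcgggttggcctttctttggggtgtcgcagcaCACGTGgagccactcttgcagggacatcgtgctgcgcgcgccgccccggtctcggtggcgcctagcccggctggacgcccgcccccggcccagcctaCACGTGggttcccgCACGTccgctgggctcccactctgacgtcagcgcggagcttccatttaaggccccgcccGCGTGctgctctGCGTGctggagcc
The Pfkp window holds 4 matches, all GCGTG. The first of the Ldha windows, shown, holds 7 matches, of which 5 are ACGTG and 2 are GCGTG, and its 2 copies of CACGTG each count as 2 overlapping matches because they read alike on both strands. CACGTG is also the E-box letter sequence, which 7.15% of 32851 windows of this length hold. At least 4 matches of the core were in 3.86% of these windows, at least 7 in 0.301%, and at least 1 in 43.8%. The 9 members other than Slc2a3 had 16 windows, up to 3 a gene and some overlapping, of which 13 held at least 1 match. The first windows of Hk1, Aldoa and Pkm held 0, but their later windows held matches. There were 5 in window 2 of Hk1, 2 in window 2 of Pkm and 1 each in windows 2 and 3 of Aldoa. Each of the 9 members thus had a match in at least 1 window. A match is a description of the letters and not evidence of binding, and any relation of matches to the changes was not tested.

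Aldolase A cleaves fructose bisphosphate into triose phosphates. Aldoa (chromosome 7, 126795234 to 126800994) is a short gene and had few UMIs, 48 at day 2.5 and 71.5 at day 0.5. It had 11.3 and 19.8 CPM in batches 2 and 3 at day 2.5, against 19.3 and 33.3 CPM in batches 1 and 2 at day 0.5. The day 2.5 cells of batch 3 were thus level with the day 0.5 cells of batch 1. Its call as lower, with a ratio of 0.560 (0.380 to 0.818), rests on batch 2, where the ratio was 0.338 (0.190 to 0.581), while batch 3 over batch 1 gave 1.03.

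Eno1, which makes phosphoenolpyruvate (chromosome 4, 150236708 to 150248879), had 311 and 278 CPM in batches 2 and 3 at day 2.5, against 248 and 236 CPM in batches 1 and 2 at day 0.5. The batches did not overlap, and the ratio of 1.23 (1.11 to 1.36) was under the threshold. Eno1 has a near-identical copy, Eno1b, with 75.2% of its UMIs in fractional values, so reads of the 2 genes may not be told apart, though just 0.410% of Eno1 UMIs lay in fractional values. Pkm (chromosome 9, 59656576 to 59679372) makes pyruvate, and 2 splice forms of it, which a table per gene does not separate, differ in their regulation. It had 234 and 187 CPM in batches 2 and 3 at day 2.5, against 183 and 217 CPM in batches 1 and 2 at day 0.5, a ratio of 1.06 (0.945 to 1.19) with overlapping batches. Fractional values held 50.0% of the Pkm UMIs, against at most 12.97% for any other member, so the level of Pkm is uncertain.

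Ldha (gene ID 16828, chromosome 7, 46842274 to 46855627), whose product favours lactate, was the member called higher. It had 135 and 126 CPM in batches 2 and 3 at day 2.5, against 56.4 and 68.4 CPM in batches 1 and 2 at day 0.5. Both day 2.5 batches lay above both day 0.5 batches by a wide margin. Over all cells the levels were 131 CPM (118.9 to 144) and 62.9 CPM (53.7 to 73.2), a ratio of 2.09 (1.74 to 2.51), and the ratio within batch 2 was 1.98 (1.56 to 2.53). Ldhb, the heart-type subunit and no member, held 56 UMIs at day 2.5, against 7 UMIs at day 0.5, or 17.6 against 2.64 CPM. Of the Ldha and Ldhb UMIs together, Ldhb held 11.8% (9.05 to 15.1) at day 2.5 and 4.02% (1.63 to 8.11) at day 0.5, so both subunit genes were higher and their intervals of balance did not meet.

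Per kb of gene span, Eno1 stood first on both days, with 24.3 CPM per kb at day 2.5 and 19.8 CPM per kb at day 0.5, and Hk1 last, with 0.206 and 0.240 CPM per kb. At day 2.5 the order after Eno1 was Ldha, Pkm, Slc2a3, Slc2a1, Aldoa, Pfkl, Hk2, Pfkp and Hk1. Neighbours in this order whose intervals met were Ldha and Pkm, Slc2a3 and Slc2a1, Slc2a1 and Aldoa, Aldoa and Pfkl, and Pfkl and Hk2. At day 0.5 it was Pkm, Pfkp, Slc2a3, Ldha, Aldoa, Slc2a1, Hk2, Pfkl and Hk1. There the intervals met for Pfkp and Slc2a3, Ldha and Aldoa, Slc2a1 and Hk2, and Hk2 and Pfkl. Pfkp was thus in place 9 at day 2.5, with 0.803 CPM per kb, and in place 3 at day 0.5, with 6.12 CPM per kb. Ldha was in place 2 at day 2.5, with 9.82 CPM per kb, and in place 5 at day 0.5, with 4.71 CPM per kb. The span includes introns, so this order of genes is not an order of RNA molecules. The place of Pkm is uncertain, with 50.0% of its UMIs in fractional values, and that of Aldoa at day 2.5 rests on 48 UMIs.

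The share of cells with a UMI moved with the levels of Pfkp and Ldha. A Pfkp UMI was found in 81 of 205 day 2.5 cells (39.5%, Clopper-Pearson interval 32.8 to 46.6) and 173 of 201 day 0.5 cells (86.1%, 80.5 to 90.5). An Ldha UMI was found in 79.02% (72.8 to 84.4) of day 2.5 cells, against 48.8% (41.7 to 55.9) of day 0.5 cells. Since day 2.5 cells were deeper, each cell was also thinned to 5000 UMIs, which left out 7 shallower cells of each day. The thinned shares were 21.7% (16.2 to 28.1) at day 2.5 and 70.6% (63.7 to 76.9) at day 0.5 for Pfkp, and 44.9% (37.9 to 52.2) and 25.3% (19.3 to 31.98) for Ldha. For Slc2a3 they were 60.1% (52.9 to 66.98) at day 2.5 and 77.3% (70.8 to 83.01) at day 0.5. The thinned intervals of the other 7 members met between the days.

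**Figure D2:**
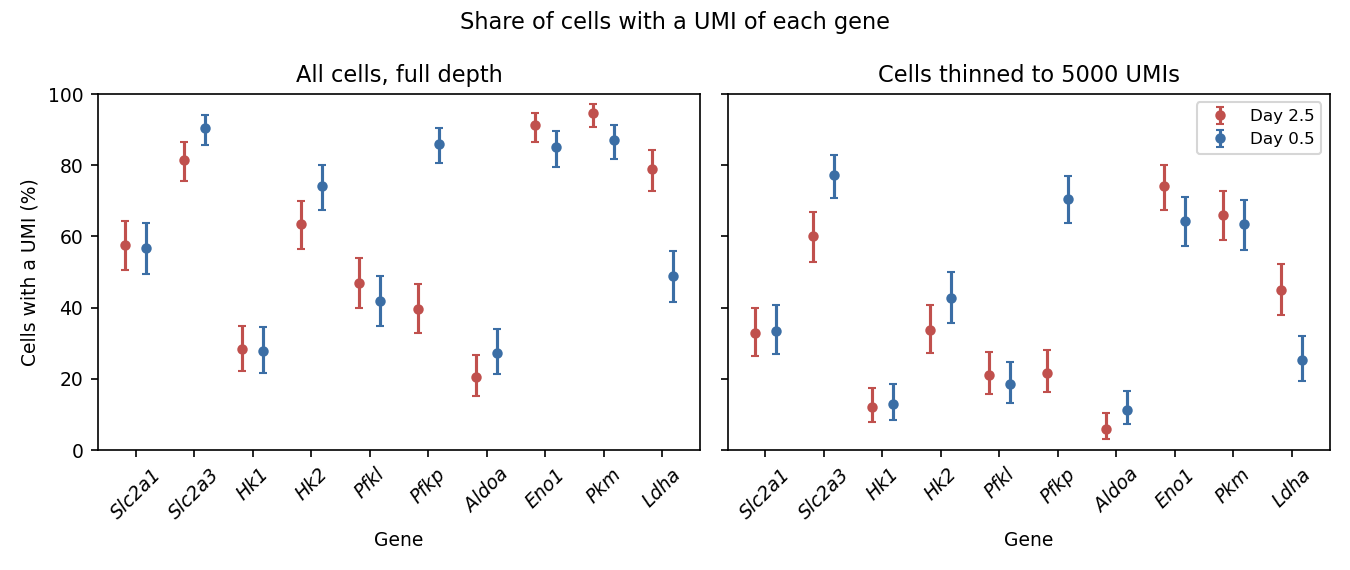
Percentage of cells with a UMI of each member, at full depth (left) and after thinning each cell to 5000 UMIs (right), with day 2.5 (red) left of day 0.5 (blue) and exact binomial 95% intervals. Pfkp is at 21.7% and 70.6% after thinning, Slc2a3 at 60.1% and 77.3%, and Ldha at 44.9% and 25.3%.

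The cells of 1 day were not alike. Pfkp held a median of 0 UMIs per cell at day 2.5 (lowest 0, highest 12), against a median of 4 at day 0.5 (lowest 0, highest 23). At day 2.5 there were 124 cells with none, and 2 cells with 10 or more UMIs held 12.4% of its UMIs. Slc2a3 held a median of 2 UMIs per cell at day 2.5 (lowest 0, highest 45), against 6 at day 0.5 (lowest 0, highest 20). At day 2.5, 22 cells with 10 or more UMIs held 44.99% of the Slc2a3 UMIs, against 39 cells with 42.3% at day 0.5. The thinned variance of Slc2a3 over its mean was 3.13 at day 2.5 and 1.78 at day 0.5, where counting alone gives a value near 1. Pfkp had 1.62 at day 2.5 and 2.21 at day 0.5, Ldha 1.27 and 1.10, and Aldoa, at few UMIs, 0.944 and 0.891. Without its highest cell, Slc2a3 was at 267 CPM at day 2.5 and 437 CPM at day 0.5. Across cells thinned to 5000 UMIs, Spearman's rho between 2 members was weak, with a median of 0.0188 and a range of -0.153 to 0.250 over 45 pairs at day 2.5 and a median of 0.0326 and a range of -0.168 to 0.204 at day 0.5. In counts this sparse these values show no shared variation that could be read.

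**Figure D3:**
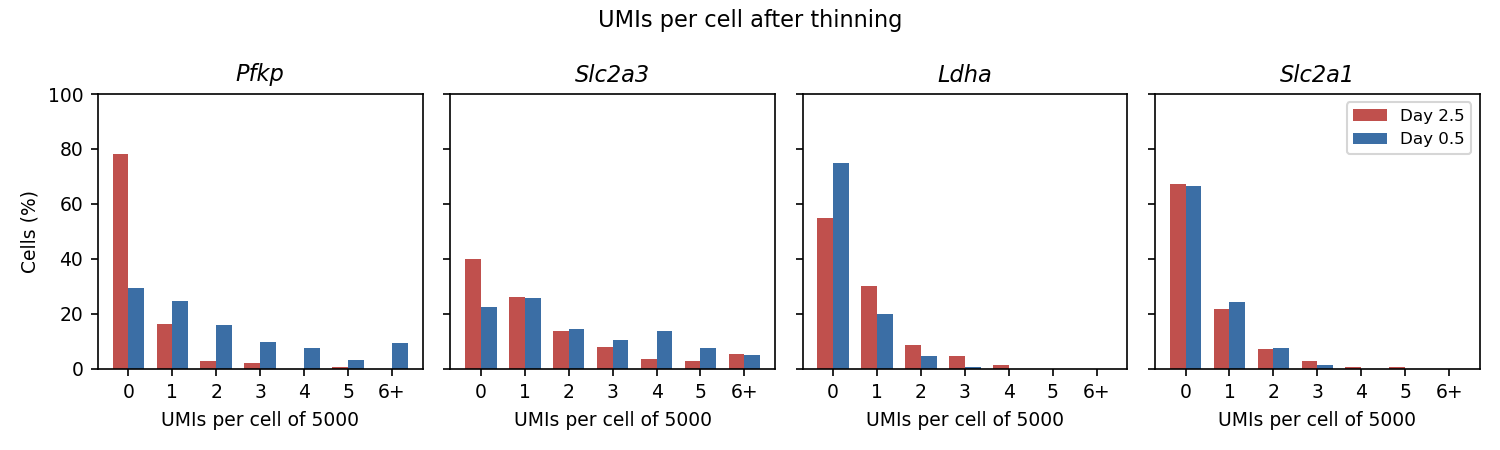
Percentage of cells by UMIs of Pfkp, Slc2a3, Ldha and Slc2a1 after thinning each cell to 5000 UMIs, with day 2.5 (red) left of day 0.5 (blue). For Pfkp the 0 bar is the higher one at day 2.5, for Ldha it is the higher one at day 0.5, and for Slc2a1 the 2 days look alike.

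The make-up of the cell cycle differed between the days, with 82 of 205 cells (40.0%) in class G1 at day 2.5, against 41 of 201 (20.4%) at day 0.5, by the authors' classes. Levels were therefore also set side by side within each of 6 classes that hold at least 5 cells of both days. Pfkp was lower at day 2.5 in all 6 classes, with ratios of 0.0494 in early S to 0.175 in M. In G1 cells it had 47.4 CPM at day 2.5 and 379 CPM at day 0.5. Within day 0.5, Pfkp was at 659 CPM in late S and 730.5 CPM in G2 cells, above the 327 CPM of early S cells, and lowest in M cells at 136 CPM (75.9 to 224). Slc2a3 was lower in all 6 classes, with ratios of 0.313 to 0.881. Ldha was higher in all 6, with ratios of 1.47 to 3.59, and Eno1 was higher in all 6, with ratios of 1.19 to 1.68. Hk2 kept the direction seen over all cells in 4 classes, Slc2a1 in 4, Hk1 in 4, Pkm in 4, Aldoa in 5 and Pfkl in 2. The interval of the ratio left out 1 in 5 classes for Pfkp (not in M, where it reached 1.14) and in 4 classes each for Slc2a3, Ldha and Eno1. The G2 class holds 18 day 2.5 cells and 6 day 0.5 cells, and the M class 7 and 15.

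**Figure D4:**
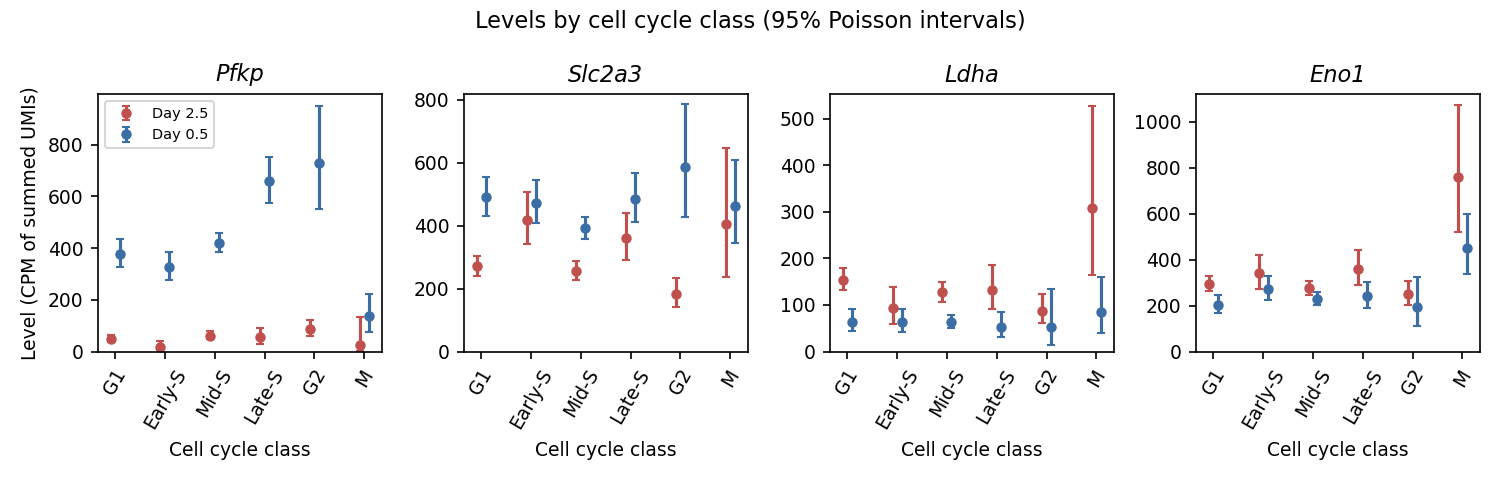
Level in CPM of UMIs summed over the cells of each of 6 cell cycle classes for Pfkp, Slc2a3, Ldha and Eno1, with day 2.5 (red) left of day 0.5 (blue) and 95% Poisson intervals. Pfkp is lower and Ldha higher at day 2.5 in each class, with intervals that are wide in G2 and M.

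Within day 2.5 the 122 cells that are also in the authors' allele table of X-linked genes were set against the 83 that are not. The 2 sets differ in Xist, the RNA that coats the inactive X, with 2490 CPM inside the table and 83.1 CPM outside it. Slc2a1 had 118.6 CPM inside and 66.4 CPM outside, a ratio of 1.79 (1.39 to 2.32), and Pkm had a ratio of 1.25 (1.07 to 1.47). The intervals of the other 8 members held 1, Pfkp at 56.2 and 54.6 CPM among them. The allele table holds 186 of the 201 day 0.5 cells, against 122 of the 205 day 2.5 cells, so the days differ in this make-up. The labels do not say what put a cell in that table, and the part of this split in the Slc2a1 value was not tested. Along the authors' pseudotime, which orders the cells of the allele table, the 61 later day 2.5 cells had 68.2 CPM of Pfkp and the 61 earlier ones 43.8 CPM, a ratio of 1.56 (1.04 to 2.37). Pfkl had a ratio of 1.76 (1.15 to 2.72) and Pkm of 0.789 (0.649 to 0.957) over the same cells. Of the day 0.5 cells, divided likewise, only the interval of Slc2a3, at 1.20 (1.07 to 1.35), left out 1. These are 10 members in 3 comparisons, with no adjustment for their number. The intervals cover counting error and leave out the spread between cells. After thinning, variance over mean was 1.62 for Pfkp at day 2.5 and 1.78 for Slc2a3 at day 0.5. An interval without 1 thus does not by itself show a difference between sets of cells.

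Genes with the profile most like that of Pfkp and of Ldha, the members that differed at least 2-fold, were sought among 7715 genes with at least 100 UMIs. The profile was log2(CPM + 5) over 20 strata of day, batch and cell cycle class, which share libraries and depth, and the likeness was Pearson's r. For Pfkp these were Kdm6b (r = 0.943), which removes methyl groups from histones, Gm26510 (r = 0.938) and Kdm2b (r = 0.938), another histone demethylase. Kdm6b had 16.9 CPM at day 2.5 and 53.5 CPM at day 0.5, and Kdm2b had 567 and 1284 CPM. For Ldha they were Rassf3 (r = 0.901), with 130.2 CPM at day 2.5 and 55.2 CPM at day 0.5, Zfp770 (r = 0.893) and Ppme1 (r = 0.874). The strata span both days, so a gene with a like difference between the days can score high. These r values are therefore no evidence of shared regulation.

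The full list of glycolytic enzymes and hexose transporters was also counted. Of its 39 genes in the table, 25 held at least 20 UMIs, and 3 were called higher, 8 lower and 14 neither, with a median change of -0.19 (-0.14 within batch 2), against -0.06 for all genes. Over all genes tested 21.1% were higher and 25.2% lower, and the list's 8 of 25 lower is near that background. Among 7 transporters 0 were higher and 3 lower: Slc2a3, the intracellular transporter gene Slc2a8 with 13.97 CPM at day 2.5 and 30.5 CPM at day 0.5, and Slc5a1, the sodium-coupled glucose transporter gene, with 3.77 and 18.6 CPM. Slc2a1 and Slc2a13, a myo-inositol transporter gene with 14.6 and 14.3 CPM, were among the 4 called neither. Among 18 enzymes 3 were higher (Ldha, Ldhb and Tpi1), 5 were lower (Pfkp, Pfkm, Aldoa, Eno3 and Eno1b) and 10 were neither. The call does not use the interval, and those of the ratios of Pfkm (0.320 to 1.20) and Eno1b (0.334 to 1.04) held 1. Within batch 2 Pfkm had 4.51 CPM at day 2.5 and 4.86 CPM at day 0.5. Tpi1, which interconverts the triose phosphates, had 21.97 CPM at day 2.5 and 12.99 CPM at day 0.5, a ratio of 1.69 (1.11 to 2.62). Gpi1, the isomerase after hexokinase, had 204 CPM at day 2.5 and 255 CPM at day 0.5, and was neither. Slc5a1, Ldhb, Tpi1, Pfkm, Eno3 and Eno1b were named after their values were seen.

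**Figure D5:**
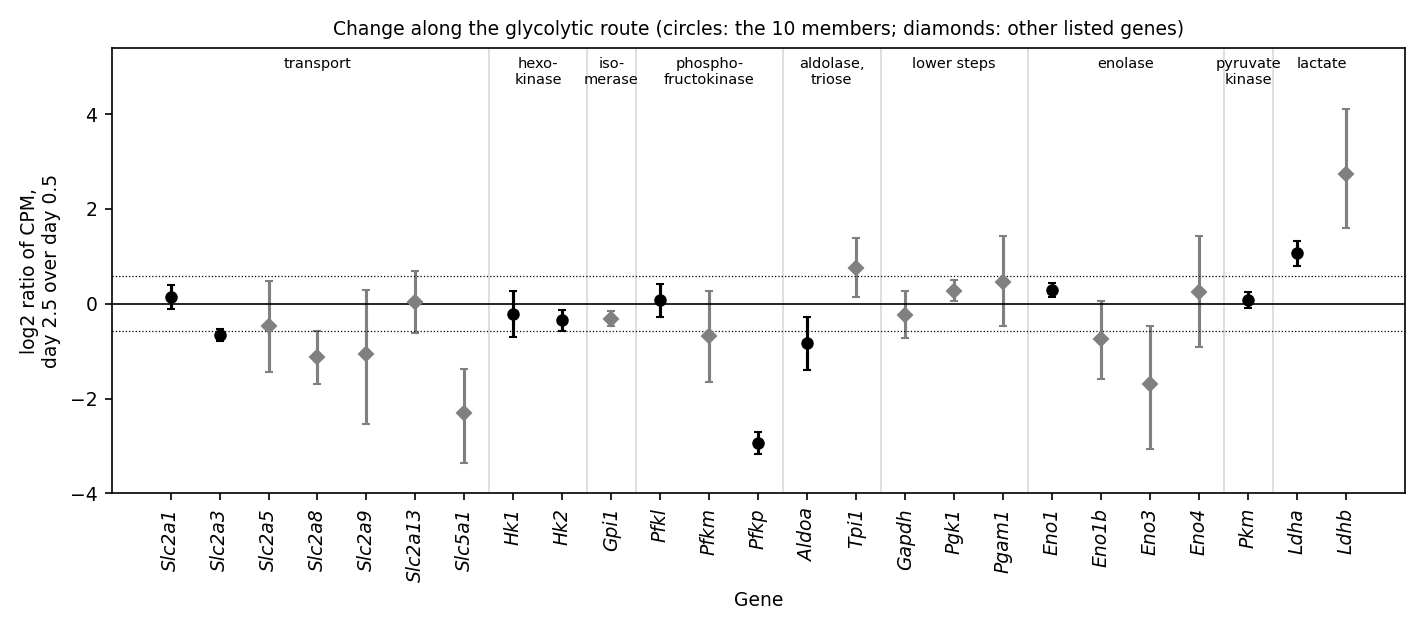
Log2 ratio of CPM, day 2.5 over day 0.5, for the 25 transporters and enzymes with at least 20 UMIs, ordered from glucose uptake to lactate, with 95% intervals of the ratio. Circles are the 10 members, diamonds other listed genes, and dotted lines mark a ratio of 1.5 either way. Pfkp and Slc5a1 lie lowest and Ldhb highest, and the intervals of genes with few UMIs are wide.

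Genes that act on glycolysis or on pyruvate were counted in lists of 6 to 9 genes, too short to set apart from the 21.1% of all genes called higher and 25.2% called lower. Of 6 regulators of the pathway 2 were higher and 2 lower. Pfkfb3, whose product makes the activator of phosphofructokinase, had 59.3 CPM at day 2.5 and 29.9 CPM at day 0.5, a ratio of 1.98 (1.52 to 2.61), while Tigar, which breaks that activator down, had 10.5 and 21.3 CPM, a ratio of 0.494 (0.312 to 0.771). Pfkfb1 and Pfkfb2 were neither. Of 6 genes of lactate and pyruvate transport 3 were higher and 2 lower. Slc16a3, which exports lactate, had 54.3 CPM at day 2.5 and 24.1 CPM at day 0.5, a ratio of 2.25 (1.68 to 3.05), and Slc16a1, of the same family, was neither with 53.98 and 64.4 CPM. Both subunits of the mitochondrial pyruvate carrier were lower, Mpc1 with 8.004 CPM at day 2.5 and 60.1 CPM at day 0.5, a ratio of 0.133 (0.0840 to 0.203), and Mpc2 with 11.8 and 21.5 CPM. Of 9 genes of the pyruvate dehydrogenase complex and its kinases and phosphatases 1 was higher and 2 were lower. Pdk3, a kinase that inhibits the complex, had 64.03 CPM at day 2.5 and 98.1 CPM at day 0.5, whereas Pdhb, Dlat and Pdk1 were neither.

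Of 10 genes of the hypoxia factor pathway 4 were higher and 2 lower, beside 21.1% and 25.2% of all genes, which is also the background of the other lists here. Epas1, which encodes the HIF-2 alpha subunit, had 2.04 CPM at day 2.5 and 345 CPM at day 0.5, while Hif1a had 128 and 108.4 CPM and Arnt, the common partner, 146 and 133 CPM. Egln3, a prolyl hydroxylase that acts on HIF, had 75.3 CPM at day 2.5 and 42.9 CPM at day 0.5. Of 10 targets of these factors outside glycolysis 3 were higher and 3 lower, with Kdm3a at 140.0 CPM at day 2.5 and 257 CPM at day 0.5, P4ha1 at 60.9 and 33.5 CPM, and Mxi1 and Bnip3l neither. Of 9 other regulators known to act on glycolytic genes 3 were higher and 4 lower. Lin28b, an RNA-binding protein, had 542 CPM at day 2.5 and 208 CPM at day 0.5, Trp53 had 68.4 and 161 CPM, and Mlxip, a sugar-responsive factor, was neither.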

How the data were processed

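RNA was read with HiRES in single mESCs at days 2.5 and 0.5 of LIF and 2i withdrawal. The authors deposited expected counts of UMIs per gene and cell, in which 11.1% of values above 0 are fractions, on GRCm38 per the submitters' processing notes. Their cell tables, as deposited, hold counts of UMIs on genes and exons, and cell cycle and pseudotime scores. Which aligner and counter were run, whether strand was used and how doublets were handled is not stated in the labels. Of 471 cells named in the titles of 236 libraries (116 at day 2.5, 120 at day 0.5; no cell name shared), 406 were in the expression table. Its other 1101 columns belong to no sample here and were not used.

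UMIs were summed per day and scaled to CPM. Intervals are 95% (Poisson for a level, conditional binomial for a ratio and Clopper-Pearson for a share, all exact) and cover counting error only. PCR copies are collapsed as far as UMIs allow. Genes with at least 20 UMIs were called at a CPM ratio of 1.5 with the same direction within batch 2. The labels name no separate cultures, so no p-value was made from cells. The members and lists were chosen with earlier results of these data known. All 10 members are named, the 3 most similar genes of each member that differed at least 2-fold, and up to 4 genes with the most UMIs of each list, though some genes are not reported here. Alternatives were median-ratio scaling, a pseudocount of 1, a minimum of 100 UMIs, thinning to 5000 UMIs, the mean over cells, each letter of the cell names, batch 2 alone, equal weight to 4 cell cycle classes, cells of the allele table and a ratio of 2. Batches 1 and 3 alone, cells with at least 5000 UMIs and the whole part of each value were added after seeing the data. Promoters and positions came from RefSeq tables of GRCm38.p6. Python 3.11.15, numpy 2.4.6, pandas 2.3.3, scipy 1.17.1 and matplotlib 3.10.9 were used.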

Additional observations from a re-analysis of the deposited data

How the results depend on the processing

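The signs of 8 of the 10 members' changes were the same under all 12 alternatives run for them, from -3.49 to -2.57 (log2) for Pfkp, -1.01 to -0.49 for Slc2a3 and 0.70 to 1.19 for Ldha. Pfkl changed sign in 1 alternative and Aldoa in 1, with 0.030 in batches 1 and 3 alone, an alternative chosen after seeing the data. In batch 2 alone Aldoa was at -1.24. Cells with letter B, 32 at day 2.5 and 42 at day 0.5, gave 5 members lower and changes of 0.53 (Slc2a1), -1.01 (Slc2a3), -0.86 (Hk1), -1.25 (Hk2), 0.44 (Pfkl), -3.49 (Pfkp), -2.09 (Aldoa), 0.48 (Eno1), 0.48 (Pkm) and 0.70 (Ldha), with isozyme balances of 1.54 (Slc2a1 against Slc2a3) and -3.93 (Pfkp against Pfkl). All cells with letter B were in batch 2. In them Aldoa held 1 UMI at day 2.5 and 10 at day 0.5, and Hk1 held 3 and 7. Thinning gave -0.49 for Slc2a3 and -2.57 for Pfkp. Equal weight to cell cycle classes gave -0.49 for Slc2a3, -3.18 for Pfkp and -3.33 for the Pfkp against Pfkl balance. Slc2a1 was at 0.38 in cells of the allele table. Ldha was called higher and Pfkp lower in every setting. At a ratio of 2, 1 member was lower. Slc2a3 also lost its call after thinning, in the mean over cells (-0.55) and at equal class weight, and Aldoa in batches 1 and 3, which left 2 members lower in each. Of 80 differences in the share of cells with a UMI, in percentage points, 9 moved past their interval. With letter B these were -35.57 for Hk2 (-10.71 over all cells), -63.84 for Pfkp (-46.56), -18.30 for Aldoa (-6.88) and 15.33 for Eno1 (6.15). Thinning gave -17.22 for Slc2a3 (-9.08) and 19.69 for Ldha (30.27), equal class weight -60.75 for Pfkp, batch 2 -17.47 for Aldoa, and batches 1 and 3 8.87 for Aldoa. Signs turned in 10 of the 80, for Slc2a1, Hk1 and Aldoa. The cause of these shifts was not tested. The other member changes, shares and balances stayed within their intervals and the other counts within 1.5-fold, and the medians of the 10 members and of the full list within their spread over genes, though 2 of 25 median values changed sign. Replicate numbers are absent, and no paired analysis was possible because each day is 1 sample. Aldoa and Hk1, with under 75 UMIs a day, are the members most limited by depth.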

Other observations

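Other routes of sugar and pyruvate use were also followed by lists, with 21.1% of all genes tested called higher and 25.2% called lower as background. Of 8 genes of the pentose phosphate pathway 1 was higher and 4 were lower, with a median change of -0.50. Pgd, which makes ribulose phosphate, had 21.5 CPM at day 2.5 and 41.04 CPM at day 0.5, and Rpe had 58.1 and 88.9 CPM, while G6pdx, the entry enzyme, and Tkt were neither. Of 7 glycogen genes 2 were higher and 1 was lower: Gbe1, the branching enzyme, had 123 CPM at day 2.5 and 37.3 CPM at day 0.5, a ratio of 3.29 (2.63 to 4.15), Pygb, a glycogen phosphorylase, had 53.7 and 89.6 CPM, and Gys1 was neither. Pcx, which turns pyruvate into oxaloacetate, had 50.7 CPM at day 2.5 and 84.7 CPM at day 0.5, though its day 2.5 batches were at 36.3 and 68.7 CPM, and Pck2 was neither.

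The background for the lists that follow is again 21.1% of all genes tested called higher and 25.2% called lower. Of 18 genes of the TCA cycle 0 were higher and 5 lower, and the 4 with the most UMIs (Suclg2, Ogdh, Cs and Dlst) were neither. Of 23 genes of the respiratory chain 0 were higher and 10 lower, with a median change of -0.37, against -0.06 for all genes. Its 4 genes with the most UMIs (Ndufs1, Atp5c1, Atp5a1 and Atp5b) were neither, with Ndufs1 at 149 CPM at day 2.5 and 172 CPM at day 0.5. Of 10 genes of serine and hexosamine synthesis 1 was higher and 1 lower. The lower one was Shmt2, the mitochondrial enzyme that makes glycine from serine, with 11.3 CPM at day 2.5 and 29.6 CPM at day 0.5, while Shmt1, Psat1 and Gfpt1 were neither.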
